A study of Mus musculus with 2 samples.

Results

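The 9 genes described here are Ifnb1, which encodes interferon beta, and 8 genes of the interferon regulatory factor (IRF) family, Irf1, Irf2, Irf3, Irf4, Irf5, Irf7, Irf8 and Irf9. They were found by gene name and by the RefSeq identifier of each probe, which gave 10 of the 39424 probes and 9 of the 27238 named genes on the array. All 9 were among the 15680 genes measured, that is, well above background in the same pool on both arrays. The genes were chosen by family, with the log2 ratios of these same arrays already in view, so their values are given as a description.

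Pooled CX3CR1high CD11b+ CD11c+ cells of the lamina propria of the large intestine were compared with pooled Ly6c+ CD11b+ monocytes of the blood. The names used below are colon pool for the cells of the first kind and blood pool for the monocytes. The colon cells came from CX3CR1gfp/+ mice, in which green fluorescent protein replaces an allele of the fractalkine receptor gene, and the monocytes came from C57BL/6J mice. An n of 10 is stated for the intestinal cells and an n of 6 for the monocytes, and what it counts is not stated. Sex, age and treatment are not given in the sources used here. Each of 2 arrays took both pools, in opposite dyes. The labels give the same pools for both arrays and call the second a dye swap, and whether both took the same RNA extracts is not stated. The arrays were counted as 1 replicate, so no test was made. Ratios are on the log2 scale, colon over blood, as the mean ± SD of the 2 arrays, and the SD is that between arrays and gives no spread between animals. Tissue, strain and isolation differed together with cell type and cannot be told apart. In pooled cells, fewer cells of a type and less RNA per cell cannot be told apart either.

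Interferon beta is a secreted type I interferon that macrophages and other cells make after Toll-like receptors or nucleic acid sensors are engaged. Its gene is switched on when phosphorylated IRF3 and IRF7 bind a short enhancer next to the promoter together with NF-kappaB and ATF2/JUN factors. Secreted interferon beta then acts through its receptor and the kinases JAK1 and TYK2 on ISGF3, a complex that holds IRF9 and switches on interferon-stimulated genes, Irf7 among them. IRF1, IRF4, IRF5 and IRF8 also have roles in the activation and the development of myeloid cells and lymphocytes.

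The labels were read beside marker genes. The marker lists were chosen with earlier results of these data known, so their counts are a description and no check of the labels. Itgax, which encodes CD11c, had a log2 ratio of 3.35 ± 0.08, and Ly6c1 had -3.28 ± 0.09. Of the 12 resident intestinal macrophage genes 10 were at least 2-fold higher in the colon pool on each array, with a median log2 ratio of 4.71, and all 10 Ly6C-high monocyte genes were at least 2-fold lower, with a median of -3.97. Itgam, which encodes CD11b, had -0.46 ± 0.33, and Cx3cr1, of which the mice of the colon pool lack an allele, had 0.10 ± 0.25. The share of spots well above background ran from 52.9% to 59.6% over pools and arrays, and 0 spots were saturated.

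Genes were called by size, where both arrays gave a 2-fold or larger difference of 1 direction and the brighter pool was well above background on both. By this rule 1 of the 9 genes, Ifnb1, was higher in the colon pool, where 14.2% of all measured genes were higher. Irf2 and Irf7 were lower, 2 of the 9, where 4.46% of all measured genes were lower. The other 6 were not called. The called genes did not share 1 direction, with Ifnb1 at the top of the ratios of the 9 genes and Irf7 at the bottom. The 1 of 9 higher is no more than the share over all measured genes, and these counts are a description.

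**Figure D1:**
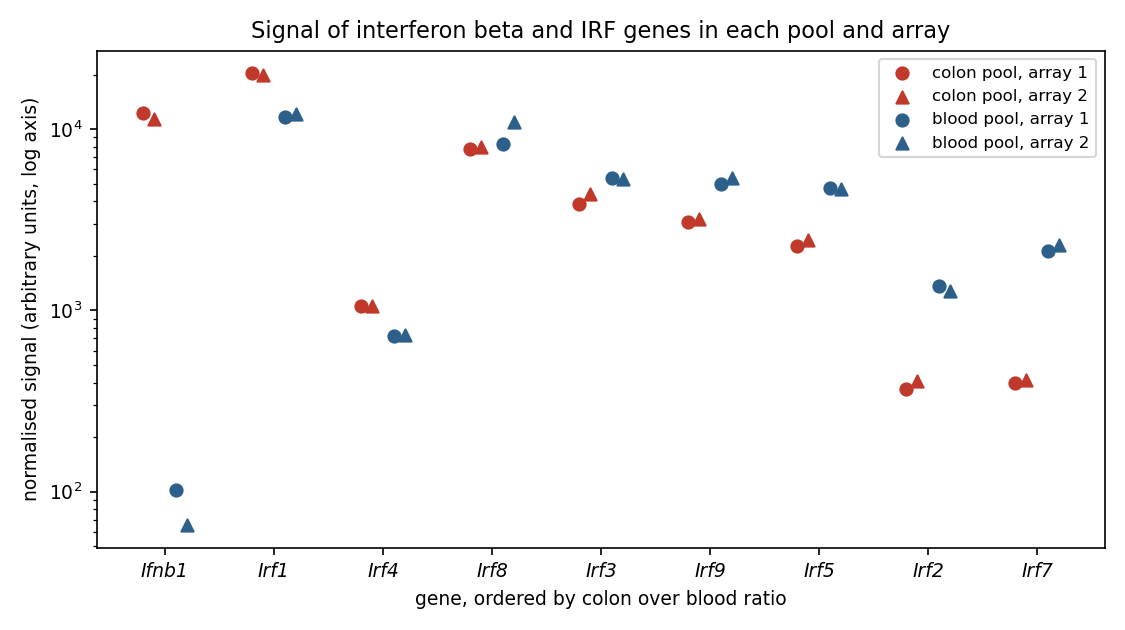
Normalised fluorescence signal (arbitrary units, log axis) of the 9 genes in the colon pool (red) and the blood pool (blue) on array 1 (circles) and array 2 (triangles). Ifnb1 had 12347 and 11369 in the colon pool against 101.6 and 65.3 in the blood pool. Heights of different genes come from different probes and are not comparable.

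Ifnb1 had a normalised signal of 12347 and 11369 units in the colon pool on arrays 1 and 2, against 101.6 and 65.3 units in the blood pool. Both values of the colon pool lay above both values of the blood pool. Every member had both colon values on 1 side of both blood values, Irf8 included, so with 2 technical arrays this sets none apart. The share of all measured genes with this trait was not computed. The log2 ratio was 6.93 on array 1 and 7.44 on array 2, with a mean of 7.19 ± 0.37, or 146-fold. Among all measured genes this ratio ranked 3 from the highest.

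Before normalisation the Ifnb1 spot read 15167 (Cy5) and 5833 (Cy3) units in the colon pool, against 76.7 (Cy3) and 109.1 (Cy5) units in the blood pool. The local background was 46 and 42 units for the colon pool and 43 and 52 units for the blood pool. The scanner software marked the spot as well above background in both pools on both arrays. The blood reading was still close to its background. The log2 ratio was 7.36 without background correction and 7.83 with an offset of 16 in place of 50. It was 8.32 with the ratios of the scanner software, which differ in more than 1 step, and 6.57 with median centring in place of loess, and Ifnb1 was called higher in all 4.

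The Ifnb1 probe lies on chromosome 4 at 88168023 to 88168082 of mouse build mm9, on the minus strand. The named genes with array ratios closest to those of Ifnb1, over genes with both pools well above background, were Dcn, the matrix proteoglycan decorin, at 7.01 ± 0.08, the monocyte-attracting chemokine gene Ccl7 at 7.01 ± 0.07 and Adamdec1, a metalloprotease-like gene, at 7.43 ± 0.03. Likeness was the distance over the 2 array ratios, which was 0.38, 0.38 and 0.53 on the log2 scale.

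The DNA before the start of Ifnb1 is shown because the IRF proteins described here bind it. It is the stretch from 170 to 71 bases before the RefSeq start, chr4:88522865-88522964 of GRCm38.p6 on the minus strand, written 5′ to 3′. Capitals mark matches to the IRF core AANNGAAA, to the kappa B letters (GGGAA and TTCC with any 1 base between them) and to the TATA box TATAAA.
Ifnb1 upstream: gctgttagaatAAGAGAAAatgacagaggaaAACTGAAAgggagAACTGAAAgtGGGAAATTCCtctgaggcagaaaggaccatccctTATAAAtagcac
Within the window from 250 bases before to 50 after the start, AANNGAAA matched 3 times, and 1.12% of 32851 RefSeq promoter windows hold as many. A window with at least 1 such match was found for 23.9% of them, on either strand. The last of the 3 matches ends near the kappa B match, which begins 116 bases before the start and whose letters occur in 0.341% of the windows. The AP-1 letters TGANTCA did not occur in this window, nor did the longer IRF element, which is the core with GA in front. No other letters were searched for ATF2/JUN factors, so the search cannot speak to other forms of their site. The core was added to the search after the sequences had been seen, and every match of the longer element is also a match of the core. A match describes letters and not binding in these cells.

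Of the factors that carry the signal to Ifnb1, IRF3 is present in most cells before stimulation and IRF7 amplifies the response. Irf3 had 3865 and 4369 units in the colon pool, against 5391 and 5313 units in the blood pool. All colon values lay below the blood values, at a log2 ratio of -0.48 and -0.28 on the arrays (mean -0.38 ± 0.14), which was not called. Its probe lies on chromosome 7 at 52257700 to 52257759 of mm9.

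Irf7 had 398.4 and 412 units in the colon pool, against 2126 and 2305 units in the blood pool. Irf7 had the lowest ratio of the 9 genes. The log2 ratio was -2.42 on array 1 and -2.48 on array 2, a mean of -2.45 ± 0.05, or 5.46-fold lower in the colon pool. It ranked 82 from the lowest of all measured genes. The named genes with ratios closest to it were Tusc1 at -2.46 ± 0.08, the calcium channel gene Itpr1 at -2.38 ± 0.05 and Gm4955 at -2.44 ± 0.06.

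The Irf7 probe is shown because the lowest ratio of the family rests on it alone. It maps to chr7:148450664-148451014 of mm9 on the minus strand, so its 60 bases span 351 genomic bases and cross a splice junction of the transcript.
Irf7 probe: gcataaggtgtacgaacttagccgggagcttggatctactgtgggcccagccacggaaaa

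IRF5 is a further factor downstream of Toll-like receptors that in macrophages drives inflammatory cytokine genes. Irf5 had 2265 and 2460 units in the colon pool, against 4735 and 4671 units in the blood pool. Its log2 ratio was -1.06 on array 1 and -0.92 on array 2 (mean -0.99 ± 0.10), so it missed the 2-fold rule on array 2 alone and was the gene just outside the threshold. With the ratios of the scanner software it was called lower at -1.10. Its probe lies on chromosome 6 at 29486901 to 29486960 of mm9.

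IRF9 is the DNA-binding part of ISGF3, through which the type I interferon receptor acts. Irf9 had 3055 and 3184 units in the colon pool, against 4950 and 5376 units in the blood pool. The colon values were below the blood values on both arrays, at -0.73 ± 0.04, which was not called. Its probe lies on chromosome 14 at 56228806 to 56228865 of mm9.

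IRF1 and IRF2 bind the same DNA element, IRF1 mostly as an activator induced by interferon and IRF2 mostly as its antagonist. Irf1 had 20311 and 19854 units in the colon pool, against 11612 and 12111 units in the blood pool. The colon values were above the blood values on both arrays, at a log2 ratio of 0.76 ± 0.07, below the threshold. This direction held with the ratios of the scanner software (0.76) and turned with median centring (-0.03), where the ratio was 1.16 on array 1 and -1.22 on array 2. The bright probe lies on chromosome 11 at 53590746 to 53590805 of mm9. A second Irf1 probe, at 53591817 to 53591876, had 81.7 and 78.3 units in the colon pool, against 80.1 and 70.4 units in the blood pool. It was well above background in the colon pool on 1 array and in the blood pool on 0 arrays, so it was not used.

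Irf2 had 367.2 and 406.4 units in the colon pool, against 1362 and 1287 units in the blood pool. The direction was opposite to that of Irf1. The log2 ratio was -1.89 on array 1 and -1.66 on array 2, a mean of -1.78 ± 0.16, or 3.43-fold lower in the colon pool. It was the called gene nearest to the threshold. Its probe lies on chromosome 8 at 47932486 to 47932545 of mm9.

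Upstream of Irf2 lies a match of the longer IRF element, shown because it is the only one found in the 12 RefSeq promoter windows of the 9 genes. The stretch from 250 to 211 bases before the start is chr8:46739495-46739534 of GRCm38.p6 on the plus strand, with the match in capitals.
Irf2 upstream: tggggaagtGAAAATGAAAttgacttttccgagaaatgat
Of all promoter windows 3.44% hold this element on either strand. The core AANNGAAA matched in the windows of Ifnb1 and Irf2, 2 of the 12, and the kappa B letters in that of Ifnb1. TATAAA was found in 4 windows, those of Ifnb1, Irf4, Irf7 and 1 of the 2 windows of Irf8.

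**Figure D2:**
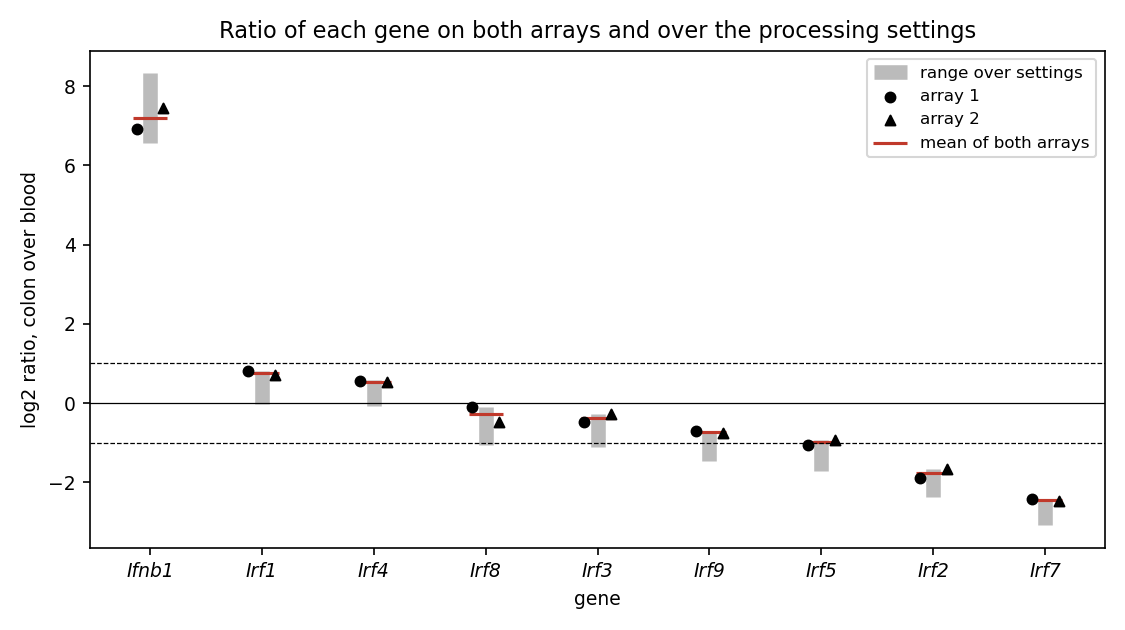
Log2 ratio (colon over blood) for the 9 genes on array 1 (circles) and array 2 (triangles), with the mean (red line) and the range over the main setting and 11 alternative settings (grey). Dashed lines mark the 2-fold threshold at 1 and -1. Ifnb1 stayed above and Irf2 and Irf7 stayed below these lines in every setting plotted, and Irf1 and Irf4 reached -0.03 and -0.09 under median centring.

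IRF4 and IRF8 are the lymphoid and myeloid members, which bind DNA mostly with partners such as PU.1 or BATF. IRF8 is required for the development of monocytes and of some dendritic cells, and IRF4 acts in plasma cells, T cells, some dendritic cells and alternatively activated macrophages. Irf4 had 1051 and 1054 units in the colon pool, against 718.4 and 733.8 units in the blood pool. The colon values were higher on both arrays, at 0.54 ± 0.02, which was not called and was -0.09 under median centring. Its probe lies on chromosome 13 at 30858532 to 30858591 of mm9.

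Irf8 had 7759 and 7938 units in the colon pool, against 8329 and 11012 units in the blood pool. The ratio was -0.10 on array 1 and -0.47 on array 2 (mean -0.29 ± 0.26), so its size was close to the difference between the arrays. Under median centring the arrays differed in sign, with 0.21 on array 1 and -2.33 on array 2. Its probe lies on chromosome 8 at 123280324 to 123280383 of mm9.

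In order of their ratios the genes were Ifnb1, Irf1, Irf4, Irf8, Irf3, Irf9, Irf5, Irf2 and Irf7. Irf8 and Irf3 overlapped over the 2 arrays. The other neighbours in this order did not overlap in the main setting. Under median centring Irf1 (1.16 and -1.22) and Irf4 (0.81 and -0.98) overlapped too. From Irf1 to Irf7 the IRF genes covered log2 ratios of 0.76 to -2.45, and 6 of the 8 IRF genes had a negative mean ratio, against a median of 0.06 over all measured genes. The median of all measured genes was -0.28 under median centring and -0.12 when the software's ratios were used. Relative to that median, Irf1 was at 0.25 and Irf4 at 0.19 under median centring, and at 0.87 and 0.50 on the software's ratios.

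**Figure D3:**
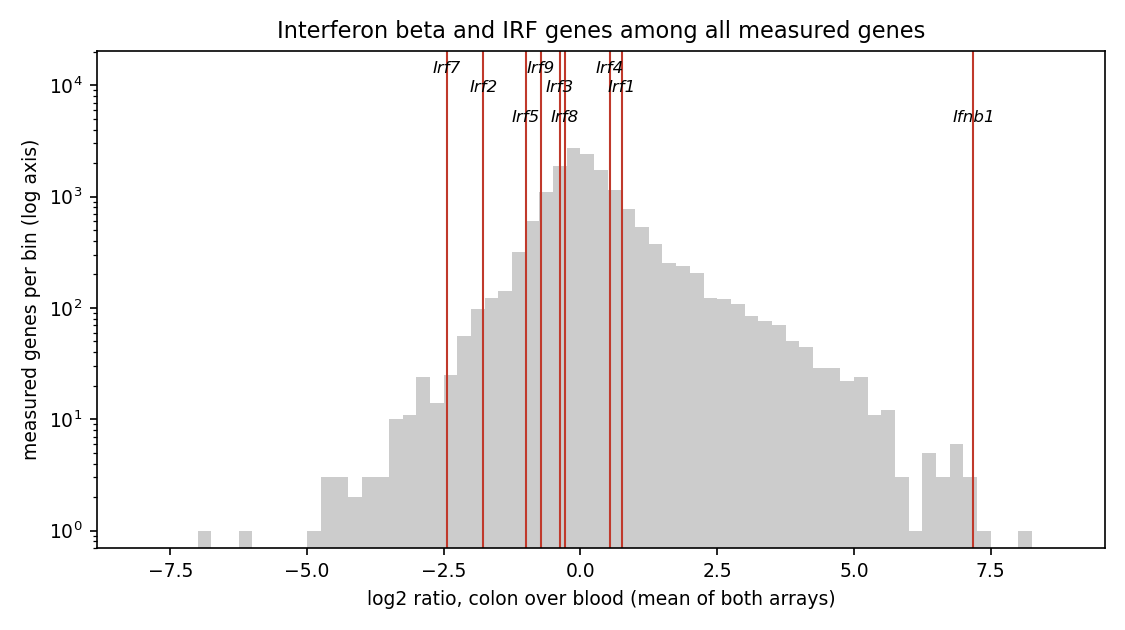
Number of measured genes (log axis) by log2 ratio (colon over blood), in bins of equal width, with the 9 genes as red lines. Ifnb1 at 7.19 lies in the sparse right tail, Irf7 at -2.45 and Irf2 at -1.78 lie in the left tail, and the other 6 lie between -0.99 and 0.76.

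The other genes of the pathway were counted by list, beside the shares of all measured genes, 14.2% higher and 4.46% lower. These shares were 7.26% and 3.56% under median centring, and 20.3% and 13.3% with the ratios of the scanner software. Few other interferon genes were measured. Of 15 on the array, 7 were, and the other 8, 7 Ifna genes and Ifne, did not stand well above background on both arrays in either pool. Ifnl3, an interferon lambda gene, was higher in the colon pool with 399.8 and 341 units, against 114.5 and 106.6 units in the blood pool (1.74 ± 0.09). Ifng, the type II interferon of T and NK cells, was higher at 1.35 ± 0.32, or 2.54-fold, with 1.12 on array 1. Its blood signal was not well above background on either array, so this fold rests on a dim reading. Putting the dimmest signal well above background in place of any lower blood signal left the ratio as it was, so no separate bound was had. The other 5 measured genes, all type I, were not called. Ifna1, Ifna14 and Ifnab, well above background on both arrays for the blood pool and on 1 for the colon pool, had -0.17, -0.22 and -0.13. Ifnk, which was not well above background in the colon pool on either array, had -0.25, and Gm13271, listed under Ifnz and well above background in both pools on both arrays, had 0.11 ± 0.33. Ifna transcripts are near-identical, so their probes may share signal. The median of the 7 was -0.13, with 1 higher under median centring and 1 lower with the software's ratios.

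Of 24 measured sensors and adaptors that lead to Ifnb1, 2 were higher, 2 lower and 20 not called (median -0.15, and -0.66 under median centring). The number lower was 8 with the software's ratios and 5 on array 1 alone, and 1 was higher under median centring. Tank, which encodes a scaffold of the kinases that phosphorylate IRF3, was higher at 2.45 ± 0.17, and its second probe read 1.93. Traf3, an adaptor of the same step, was higher at 1.51 ± 0.14. Zbp1, a nucleic acid sensor, and Tbkbp1, which encodes a binding partner of the kinase TBK1, were lower at -1.68 ± 0.16 and -1.60 ± 0.07. Other probes read -2.59 for Zbp1, and -1.62 and -0.53 for Tbkbp1. The kinase genes Tbk1 (0.54 ± 0.14) and Ikbke (0.41 ± 0.22) were not called, nor was the receptor gene Tlr4 (0.12 ± 0.19), and Tlr3 was not well above background in either pool.

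Among the 8 factors that bind the Ifnb1 enhancer with the IRFs, 3 were higher and 0 lower. Their median was 0.89. Under median centring 0 were higher and the median was 0.16, and with the software's ratios 2 were lower. Crebbp, the coactivator CBP, was higher at 2.50 ± 0.02, and Jun, a component of AP-1, at 1.87 ± 0.11. Hmga1, a protein that bends DNA, was higher at 1.26 ± 0.23, and its other probes read 0.83 and -0.10. The NF-kappaB subunit genes Rela (1.02 ± 0.31) and Nfkb1 (0.76 ± 0.07) were not called, and Rela missed 2-fold on array 1 alone. Ep300 (-0.95 ± 0.27), Kat2b (-0.72 ± 0.10) and Atf2 (0.01 ± 0.21) were not called either, and Ep300 missed the lower call on array 2 alone.

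Of 12 genes of the type I interferon receptor and its signalling, 2 were higher and 3 lower (median 0.20). Under median centring 0 were higher and 3 lower (median -0.56). The feedback inhibitor genes Socs3 (2.41 ± 0.10) and Socs1 (2.24 ± 0.02) were higher. Usp18, a feedback inhibitor that acts at the receptor and is itself interferon-stimulated, was lower at -2.30 ± 0.24, as were the phosphatase gene Ptpn6 (-2.16 ± 0.01) and the kinase gene Tyk2 (-1.46 ± 0.15). The receptor chains Ifnar1 (0.89 ± 0.16) and Ifnar2 (0.70 ± 0.07) were not called, nor was Stat2 (-0.76 ± 0.23), which encodes a partner of IRF9 in ISGF3. Of the 4 genes on the interferon gamma side, the receptor chain gene Ifngr1 was lower at -1.23 ± 0.03 and 0 were higher, and under median centring 0 were lower.

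Of 20 measured targets of ISGF3, 4 were higher and 6 lower (median -0.43). With the software's ratios 10 were lower, and under median centring 2 were higher (median -0.97). Cxcl10, a T cell-attracting chemokine, was higher with 54117 and 60286 units in the colon pool, against 1689 and 2885 units in the blood pool (4.69 ± 0.44). Oasl1 (2.82 ± 0.11), which in mice restrains the translation of Irf7 mRNA, the ubiquitin-like modifier gene Isg15 (2.31 ± 0.10) and Ifit1 (2.13 ± 0.02) were higher as well. The antiviral genes Oasl2 (-2.34 ± 0.15), Xaf1 (-1.87 ± 0.17), Oas2 (-1.78 ± 0.10) and Zbp1 were lower, in the direction of Irf7. Of the 16 measured targets of IRF1 or IRF8, 2 were higher and 2 lower (median -0.26), and under median centring 0 were lower (median -0.98). Gbp4, a guanylate-binding protein gene, was higher at 3.05 ± 0.14. Il12b, the shared subunit of interleukins 12 and 23, was higher at 2.35 ± 0.05, or 5.09-fold. Its blood signal was not well above background on either array, so this fold rests on a dim reading as well. Casp1 (-1.16 ± 0.02) and the peptide transporter gene Tap1 (-1.11 ± 0.07) were lower.

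Partners and regulators of the IRFs had 4 of 17 higher and 2 lower (median -0.02). Median centring left 0 higher and 1 lower (median -0.52). Spi1, which encodes PU.1, the partner of IRF4 and IRF8, had -0.16 ± 0.04 and was not called. Batf, a partner of IRF4, was higher at 1.26 ± 0.12, and Spib, which encodes a relative of PU.1, at 1.12 ± 0.06. The ubiquitin ligase gene Peli1 (1.61 ± 0.09) and Tnfaip3, which encodes the inhibitor A20 (1.91 ± 0.02), were higher. Ikzf1, the lymphoid and myeloid factor Ikaros, was lower at -2.11 ± 0.00, with -0.94 from its second probe, and Trim21, which encodes a ubiquitin ligase that targets IRFs, was lower at -1.18 ± 0.02.

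**Figure D4:**
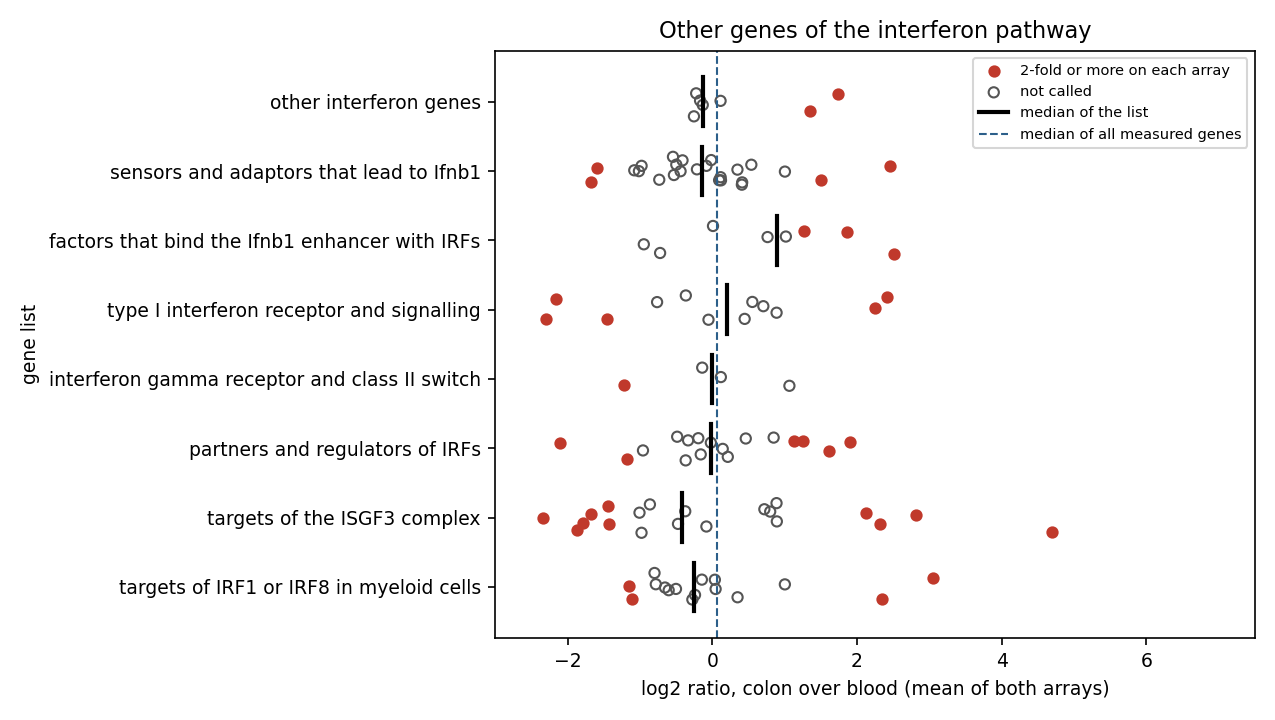
Log2 ratio (colon over blood) for the measured genes of 8 lists of the interferon pathway, each point 1 gene, filled red where it was at least 2-fold different on each array. Black ticks are list medians, from -0.43 for the targets of ISGF3 to 0.89 for the factors that bind the Ifnb1 enhancer, and the dashed line is the median of all measured genes at 0.06.

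Several other cell types express members of the family, and their markers were read beside them. Whether the sorts kept each of these cell types out was not tested. Of 8 plasmacytoid dendritic cell genes, which mark cells rich in IRF7 and IRF8, 3 were higher and 0 lower in the colon pool (median 0.88). Their summed signal was 26304 and 25043 units in the colon pool, against 15615 and 15009 units in the blood pool. Of these, Siglech gave 17442 and 17017 units in the colon pool and 11209 and 11119 units in the blood pool. A sum, here and for the lists below, adds different probes and is led by the brightest genes. The blood signal was not well above background on either array for Klk1 and on 1 array for Ccr9. The defining marker Siglech read 0.63 ± 0.02 from its brightest probe and 3.85 from another. Irf7 had the opposite direction to this list, and Irf8 (-0.29 ± 0.26) was not called. The part of plasmacytoid dendritic cells in either ratio was not tested.

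B cell and plasma cell genes, of which plasma cells are rich in IRF4, were higher for 10 of 12 and lower for 0 (median 2.15), and under median centring 5 were higher. Their summed signal was 60736 and 61077 units in the colon pool, against 24538 and 26755 units in the blood pool. Of that blood sum, 21505 and 23673 units came from Xbp1, a factor of secretory cells with a ratio of -0.03 ± 0.12. Jchain, the antibody joining chain, had the highest ratio of this list at 5.18 ± 0.22, and the blood signal of Cd79a and Tnfrsf17 on both arrays and of Derl3 on 1 was not well above background. Conventional dendritic cell genes had 1 of 8 higher, Ccr7 (5.07 ± 0.14), and 1 lower, Flt3 (-1.505 ± 0.14), with a median of 0.16. Their summed signal was 13209 and 13016 units in the colon pool, against 5098 and 5746 units in the blood pool, where the blood signal of Zbtb46 and Itgae was not well above background on either array, and Xcr1 was below that mark in both pools.

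T cell genes were higher for 8 of 10, with a summed signal of 10638 and 9536 units in the colon pool, against 2253 and 1764 units in the blood pool. Fibroblast genes were higher for all 8, at 120009 and 127560 units in the colon pool, against 1962 and 1853 units in the blood pool, and the blood signal was not well above background on 1 array for Lum and on both for Pdgfra. Epithelial genes were higher for 8 of 10, at 6679 and 5967 units in the colon pool, against 1028 and 828.9 units in the blood pool. For 6 of the 10 epithelial genes the blood signal was not well above background on either array, and 3 were higher where both pools had to be. These markers had the direction of Ifnb1 and, in the main setting, of the uncalled Irf1 and Irf4. So had the resident intestinal macrophage genes, of which 10 of 12 were higher, with a median of 4.71. Under median centring Irf1 and Irf4 were at -0.03 and -0.09, while the list medians were 1.67 (T cells), 5.85 (fibroblasts) and 1.54 (epithelium). The part of any of these cell types in the ratios of Ifnb1, Irf1 and Irf4 was not tested.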

How the data were processed

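Total RNA of each pool (25 ng) was amplified from an oligo-dT primer and labelled with Cy3 or Cy5, per the labels' protocols. The authors deposited scanner files that give spot and local background intensity in linear units, without normalization, and the software's dye-normalized log10 ratio (red over green), as the file headers name them. The software was Agilent Feature Extraction, 10.5.1.1 per the submitters' processing notes and 10.7.3.1 per the file headers. The value table that the authors deposited holds this log10 ratio too, turned to colon over blood on array 2, with a largest difference of 4.81e-08.

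Intensities were corrected with normexp (offset 50) and normalized by loess within arrays, where controls and outliers had weight 0, in limma 3.58.1 (R 4.3.3). Signals are channel values after Aquantile, and array 2 was turned before averaging. Spots of a probe were averaged, and the brightest probe gave a gene's value. Because 1 replicate allows no test, calls were by size (2-fold on each array, the brighter pool well above background). The members, the 8 pathway lists and the 8 marker lists were chosen with earlier results of these data known. Some genes of the pathway lists are not reported here and enter no count or median of a list. Named genes are all members, the 3 genes nearest to the highest and lowest member, and up to 4 called genes per list and direction, or its 2 brightest where none was called. Uncalled genes outside that rule (such as Tbk1, Tlr4, Rela and Ifnar1) were named for their role, or for lying near the threshold, after their values were seen. The method was also run on simulated arrays. Their dye shift was the same at every intensity, so they could not test a shift that varies with intensity. The number of arrays limits the precision. No batch could be tested, as both arrays shared a slide and a scan. Promoter sequences are RefSeq's for GRCm38.p6, and all 9 members had at least 1.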

Additional observations from a re-analysis of the deposited data

How the results depend on the processing

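Each value was recomputed without background correction, with an offset of 16, with median centring, on the software's own ratios, with the deposited value table, with Aquantile scaling (which leaves ratios as they are), with the mean over probes, without the filter on dim probes, with both pools required above background, and on each array alone. In all 11 of these, 1 member, Ifnb1, was higher. Without replicate 1 or without replicate 2, the number of lower members was 2 to 3, with Irf5 added on array 1 alone, as with the software's ratios. At a 1.5-fold threshold 2 members were higher, Ifnb1 and Irf1, and 4 were lower, Irf2, Irf5, Irf7 and Irf9. At a 4-fold threshold 1 was lower, Irf7. Of 99 recomputed member values, 73 stayed within 1 SD of the arrays, 26 moved further and 0 of the called ones turned their sign. Many of the 73 could not have moved. Aquantile scaling and the filter settings left each member's ratio as it was, and the mean over probes changed Irf1 alone. An array alone always lies within 1 SD of the mean, and the deposited value table repeats the software's ratios. The count of 73 is therefore no measure of robustness. Median centring gave the lowest value of each member, from 6.57 for Ifnb1 to -3.08 for Irf7, and the cause was not tested. Over all measured genes, 18.6% were called, against 33.5% with the software's ratios and 10.8% with median centring. No paired analysis was possible because the labels name the same pools on both arrays and the groups have no replicate numbers to share. The offset compresses ratios of dim spots such as Ifnb1 in the blood pool.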
